A study of Homo sapiens with 16 samples.

Results

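The genes of corticosteroid signaling followed here through an estrogen time course are *SGK1*, *SGK2* and *SGK3*, the serum and glucocorticoid-regulated kinases, *TSC22D3*, which encodes the glucocorticoid-induced leucine zipper protein GILZ, and *NEDD4L*, a ubiquitin ligase that SGK kinases phosphorylate. They were taken by symbol, and their rows are 5 of the 26364 genes in both count tables. Bulk RNA-seq had been made from 2 human carcinoma lines, Ishikawa from endometrium and T-47D from breast. Both lines carry the estrogen receptor and were treated with 10 nM 17β-estradiol (E2) for 0, 2, 4 or 8 h, in 2 replicates each, which makes 16 libraries. The 0-h libraries, which received vehicle, served as the reference in each line. Before treatment all cells, the 0-h cells included, were kept in phenol red-free medium with charcoal-stripped serum, for 3 days by the sample labels, while the study's methods give a longer period. Charcoal stripping lowers steroid hormones in serum in general, corticosteroids included. Each tissue is represented by a single established line, so line and tissue cannot be told apart, and nothing in the labels says that replicates were separate cultures. The p-values therefore measure the spread between these libraries, which may be technical. In bulk RNA, fewer cells that express a gene and less RNA per cell cannot be told apart either.

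SGK kinases belong to the same branch of protein kinases as AKT and are switched on by PI3K, PDK1 and the mTORC2 complex. *SGK1* is transcribed in response to glucocorticoids, mineralocorticoids and serum, and its protein is short-lived. SGK1 phosphorylates NEDD4L and so keeps it from ubiquitinating the epithelial sodium channel ENaC. GILZ, another product of corticosteroid action, restrains inflammatory transcription factors.

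Total counts ranged from 41177912 to 58918642 in Ishikawa cells and from 41223813 to 64148903 in T-47D cells. Between 71.2% and 74.6% of the counts from 1 to 10 were even numbers in each library, and whether both reads of a pair were counted is not given in the sources used here, so a low count may rest on fewer fragments than its size. All 4 endometrial markers were above 1 CPM (counts scaled to the library total) in Ishikawa cells. All 4 luminal breast markers were above 1 CPM in T-47D cells, and 2 of them (*FOXA1* and *TRPS1*) in Ishikawa cells too. No endometrial marker was above 1 CPM in T-47D cells, where *SOX17* and *EMX2*, which are endometrial, had no count. The late Ishikawa libraries did not separate by their labels. Only 2 genes differed between 4 h and 8 h by edgeR with an adjusted p under 0.05 (554 at an unadjusted p under 0.05, 2 by DESeq2), against 533 genes in T-47D cells (2533 unadjusted, 712 by DESeq2). Among these 4 Ishikawa libraries the largest distance, 0.391 (root mean square log2 difference), lay between the replicates of 4 h, and the smallest, 0.329, between 4 h replicate 2 and 8 h replicate 1. Ishikawa values at 4 h and 8 h are therefore also given with both time points as 1 group.

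The short sequences that corticosteroid and estrogen receptors recognize were searched around the 5 genes because they bear on how such genes are commonly classed. Within 50000 bases of the 5′ end of each gene on GRCh37 (GENCODE annotation), the estrogen response element, half-sites GGTCA and TGACC with 3 bases between them, read on both strands, was absent from all 5 windows, and 8.85% of 22191 genes have it in such a window. The glucocorticoid response element pattern, AGAACA and TGTNC with 3 bases between them, which 22.4% of genes have, occurred at *TSC22D3* and *NEDD4L*. The 5′ end used was the outermost annotated end of each gene. All of the 5 genes but *SGK2* extend beyond their window, so starts of shorter transcripts further inside may not have been searched. The sequences found are shown with the matched letters in capitals, 5′ to 3′, each on the minus strand.
TSC22D3 intron, chrX:106987497-106987510: cctatctcAGAACATAGTGTGCtatttcca
TSC22D3 intron, chrX:107011075-107011088: aatggcccAGAACATACTGTGCtgtcccaa
Upstream of NEDD4L, chr18:55681610-55681623: cagtggaaAGAACACTTTGTTCatttttaa
The *TSC22D3* matches lay 33062 and 9484 bases inside the gene from its 5′ end. The *NEDD4L* match lay at -29848 bases from its 5′ end, upstream and in no annotated gene. A match is a description of letters, and receptor binding was not measured in these data.

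The levels before E2 differed between the lines for 3 of the 5 genes, as did 81.9% of all genes tested. *SGK1*, at chr6:134490386-134639250 on the minus strand, had 7.80 and 8.16 CPM in the 0-h libraries of Ishikawa cells (359 and 380 counts). In T-47D cells it had 0.135 and 0.243 CPM, from 6 and 10 counts. The groups were far apart, with T-47D lower by a log2 difference of -5.33 (SE 0.27, adjusted p = 1.71e-13, edgeR). *TSC22D3*, at chrX:106956451-107020572 on the minus strand, had 67.8 and 68.5 CPM in Ishikawa and 21.9 and 21.3 CPM in T-47D cells, a log2 difference of -1.59 (SE 0.08, adjusted p = 1.01e-13). *NEDD4L*, at chr18:55711458-56068772 on the plus strand, went the other way, with 59.2 and 61.1 CPM in Ishikawa and 127.2 and 126.7 CPM in T-47D cells, a log2 difference of 1.15 (SE 0.06, adjusted p = 2.00e-13). Thus Ishikawa cells had more RNA of the kinase *SGK1* and of *TSC22D3*, and T-47D cells more of the ligase.

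The other 2 kinases were near the detection limit at 0 h. *SGK2*, at chr20:42187608-42216877 on the plus strand, had 10 and 12 counts in Ishikawa and 5 and 7 in T-47D cells (log2 difference -0.68, SE 0.71, adjusted p = 0.380). *SGK3*, at chr8:67624969-67774257 on the plus strand, had 10 and 10 counts in Ishikawa and 9 and 15 in T-47D cells (0.44, SE 0.53, adjusted p = 0.440). SGK3 protein differs from the other SGK kinases by a PX domain that binds endosomal phosphoinositides. In the GENCODE annotation, which is not the one counted, only 56.0% of the *SGK3* exon bases are its own. The rest are shared with the readthrough gene *C8orf44-SGK3* on the same strand, whose own row held at most 2 counts in any library. How reads in shared exons were assigned is not given in the sources used here, so *SGK3* counts are uncertain as a measure of the whole transcript.

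Per kilobase of exon, which allows genes to be set side by side, the 0-h order in Ishikawa cells was *TSC22D3* (13.8 ± 0.108 CPM per kb, SD, n = 2), *NEDD4L* (1.76 ± 0.0386), *SGK1* (0.801 ± 0.0256), *SGK2* (0.0437 ± 0.00525) and *SGK3* (0.0380 ± 0.000311). Of these neighbors, *SGK2* and *SGK3* alone differed by less than 2 SDs of the former. In T-47D cells *TSC22D3* (4.36 ± 0.0856) and *NEDD4L* (3.72 ± 0.0104) led as well. They were followed by *SGK3* (0.0498 ± 0.0200), *SGK2* (0.0260 ± 0.00744) and *SGK1* (0.0190 ± 0.00763), and on this scale neighbors among these 3 kinases did not differ by more than the sum of their SDs. Divided by the bases of its own exons alone, *SGK3* came to 0.0677 ± 0.000555 CPM per kb in Ishikawa and 0.0888 ± 0.0358 in T-47D cells, above *SGK2* in both lines by more than the sum of their SDs, so the order of *SGK2* and *SGK3* depends on how shared exons are counted. By these counts *SGK1* was the most abundant SGK kinase per length in Ishikawa cells and no more abundant than the others in T-47D cells. How reads in the exons that *SGK3* shares were assigned is not given, so its place in this order is uncertain. The annotated exons of *NEDD4L* add up to 34097 bases over all its transcripts, so its level per kilobase is a low estimate of any 1 transcript. The same limit holds for the other genes, with 9962 bases for *SGK1* and 4957 for *TSC22D3*. Exon lengths come from GENCODE, whereas the counts were made over UCSC Known Genes. The order per kilobase thus rests on an annotation other than the one counted.

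**Figure D1:**
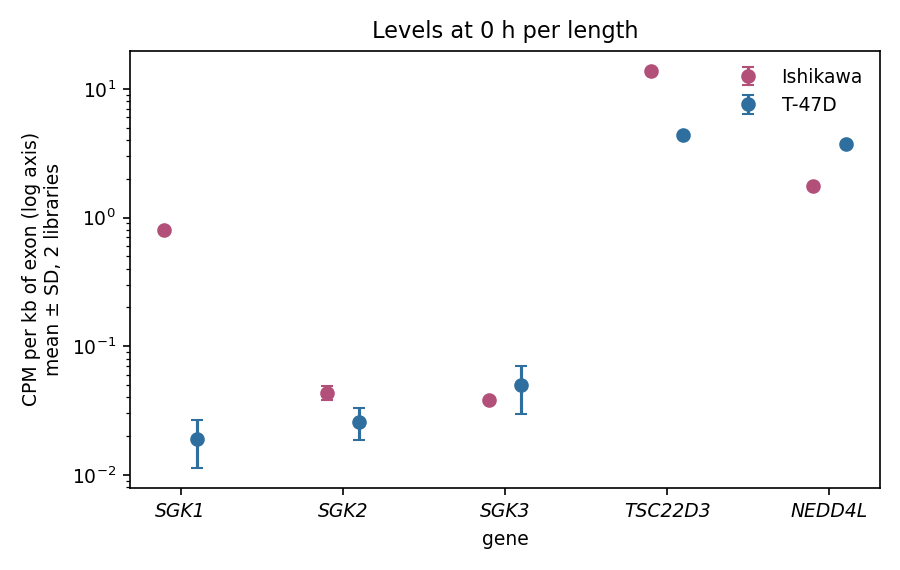
Levels of the 5 genes at 0 h in CPM per kilobase of annotated exon (log axis), with points for the mean and bars for the SD of 2 libraries in Ishikawa and T-47D cells. *TSC22D3* and *NEDD4L* lead in both lines, and *SGK1* lies at 0.801 in Ishikawa against 0.0190 in T-47D cells.

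After E2, *TSC22D3* and *NEDD4L* fell in T-47D cells. None of the 4 genes that could be tested in Ishikawa cells changed there by the same test. *SGK3* was called up in T-47D cells, but from low counts, and it entered the T-47D test through the treated groups. *TSC22D3* fell early and kept falling in T-47D cells. Its 0-h libraries had 21.9 and 21.3 CPM, the 2-h libraries 16.4 and 16.1, the 4-h libraries 12.7 and 11.5, and the 8-h libraries 11.6 and 11.4. No treated library reached either 0-h library, and the 4-h and 8-h libraries overlapped. The log2 fold change was -0.41 at 2 h (SE 0.08, adjusted p = 0.00269), -0.84 at 4 h (SE 0.08, adjusted p = 8.64e-07) and -0.91 at 8 h (SE 0.09, adjusted p = 2.30e-07), which left 0.533 times the 0-h level. Between 2 h and 8 h it fell by a further 0.50 (log2, SE 0.09, adjusted p = 0.000511). It was the 1 gene of 4 tested that fell at 2 h, where 4.40% of all T-47D genes did, and 16.8% of all genes differed between 2 h and 8 h in either direction.

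In Ishikawa cells the *TSC22D3* level was 67.8 and 68.5 CPM in the 0-h libraries, 75.5 and 67.4 in those of 2 h, 62.7 and 65.0 in those of 4 h, and 65.9 and 57.0 in those of 8 h. The 2-h libraries lay on both sides of the 0-h values, and the late libraries were all below them. The log2 fold changes of 0.07, -0.10 and -0.15 at 2, 4 and 8 h did not pass (adjusted p = 0.717, 0.446 and 0.186), and with 4 h and 8 h as 1 group the value was -0.12 (adjusted p = 0.188). The change differed between the lines at every time point. T-47D minus Ishikawa was -0.46 at 2 h (SE 0.11, adjusted p = 0.0223), -0.73 at 4 h (SE 0.11, adjusted p = 0.000183) and -0.77 at 8 h (SE 0.11, adjusted p = 9.06e-05), beside 2.67%, 6.03% and 10.0% of all genes with a difference at these times. The 2-h difference lost its call when 1 of 5 libraries was left out (Ishikawa 2 h replicate 1, either T-47D 0-h library or either T-47D 2-h library), with values from -0.42 to -0.48.

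*NEDD4L* fell in T-47D cells too and had its lowest level at 4 h. Its fall passed the test from 4 h and that of *TSC22D3* from 2 h, but the timing of the genes was not compared. Whether *NEDD4L* differed between 4 h and 8 h was not tested. The 0-h libraries had 127.2 and 126.7 CPM of the ligase, the 2-h libraries 116.9 and 115.6, the 4-h libraries 89.0 and 88.3, and the 8-h libraries 95.9 and 102.0. All 6 treated libraries were below both 0-h libraries, and the 4-h libraries were below all others. At 2 h the log2 fold change of -0.13 did not pass (SE 0.05, adjusted p = 0.1003, unadjusted p = 0.0137 by edgeR). At 4 h it was -0.52 (SE 0.05, adjusted p = 2.28e-07) and at 8 h -0.36 (SE 0.05, adjusted p = 1.10e-05), and 8 h was below 2 h by -0.23 (SE 0.05, adjusted p = 0.00184). With *TSC22D3*, these were 2 of 4 tested genes that fell at 4 h and at 8 h, where 10.4% and 14.3% of all T-47D genes fell. The comparisons share their 0-h libraries and are not independent.

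In Ishikawa cells *NEDD4L* was at 59.2 and 61.1 CPM in the 0-h libraries, 59.7 and 60.3 in those of 2 h, 59.3 and 53.3 in those of 4 h, and 52.2 and 57.1 in those of 8 h. The 2-h libraries lay between the 0-h libraries, and 3 of the 4 late libraries lay below both of them. The log2 fold changes were -0.00, -0.10 and -0.14 (adjusted p = 0.988, 0.398 and 0.174), and -0.12 with 4 h and 8 h as 1 group (adjusted p = 0.162). The difference between the lines passed at 4 h (-0.41, SE 0.08, adjusted p = 0.00344) but not at 8 h (-0.22, SE 0.08, adjusted p = 0.0991). With the late libraries as 1 group in each line it was -0.32 (adjusted p = 0.0175).

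*SGK3* rose in T-47D cells from low counts. The 0-h libraries held 9 and 15 counts, the 2-h libraries 29 and 25, the 4-h libraries 59 and 48, and the 8-h libraries 35 and 35. In CPM the 0-h libraries had 0.203 and 0.364, the 2-h libraries 0.604 and 0.587, the 4-h libraries 0.918 and 0.925, and the 8-h libraries 0.700 and 0.699, so that every treated library was above both 0-h libraries. The log2 fold change was 1.08 at 2 h (SE 0.40, adjusted p = 0.111), 1.71 at 4 h (SE 0.38, adjusted p = 0.00311) and 1.31 at 8 h (SE 0.39, adjusted p = 0.0171). It was 1 of 4 genes tested that rose at 4 h and at 8 h, beside 11.1% and 15.4% of all genes. The filter on low counts bears on these calls and on this count of 1 of 4. In both libraries of a time point *SGK3* exceeded the limit of 0.204 CPM at 2, 4 and 8 h but not at 0 h, so it entered the test through the treated groups. The 8-h call was lost without T-47D 0 h replicate 1 (log2 fold change 0.95, adjusted p = 0.156) and without either 8-h library (adjusted p = 0.0519 and 0.0602), while the 4-h call held without any 1 of the 8 libraries (1.34 to 2.18).

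The row of the neighboring *C8orf44*, part of which belongs to the readthrough gene, had its highest raw counts at 4 h in T-47D cells. The 4-h libraries were also the deepest of that line, with 64148903 and 51653748 total counts against 47817917 and 42602641 at 2 h. The counts of this row were not scaled for depth. The 0-h libraries held 145 and 133 of its counts, the 2-h libraries 205 and 168, the 4-h libraries 259 and 220, and the 8-h libraries 159 and 177. Its part in the *SGK3* counts was not tested. In Ishikawa cells the *SGK3* counts were 10 and 10 in the 0-h libraries, 2 and 6 in those of 2 h, 2 and 7 in those of 4 h, and 11 and 11 in those of 8 h, and the gene did not pass the filter. Without a filter its log2 fold changes were -1.40 (SE 0.98), -0.97 (SE 0.97) and -0.01 (SE 0.85), none past the test. The difference between the lines in the 4-h change was 2.67 (SE 0.76, adjusted p = 0.0413). It rests on these few Ishikawa counts and lost its call in 10 of 16 fits that left out 1 library, namely either Ishikawa 0-h library, Ishikawa 4 h replicate 1, T-47D 0 h replicate 1, or any T-47D library of 2, 4 or 8 h (2.05 to 2.68).

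*SGK1* did not change by the test in either line. In Ishikawa cells it stayed between 7.24 and 8.16 CPM in all 8 libraries, with log2 fold changes of -0.04, -0.08 and -0.01 at 2, 4 and 8 h (SE 0.12 at each, adjusted p = 0.888, 0.715 and 0.956). The value with 4 h and 8 h as 1 group was -0.05 (adjusted p = 0.786). The groups overlapped at each time point. In T-47D cells the *SGK1* counts were 6 and 10 in the 0-h libraries, 11 and 11 in those of 2 h, 24 and 8 in those of 4 h, and 23 and 20 in those of 8 h. In CPM, 0.135 and 0.243 at 0 h stood beside 0.460 and 0.400 at 8 h, where the groups did not overlap, and 0.374 and 0.154 at 4 h, where they did. The log2 fold changes of 0.37, 0.53 and 1.19 (SE 0.61, 0.58 and 0.56) did not pass after adjustment (adjusted p = 0.777, 0.575 and 0.121), and the unadjusted p at 8 h was 0.0468. In both libraries of a time point *SGK1* exceeded the limit of 0.204 CPM at 2 and 8 h, but not at 0 or 4 h. It thus entered the T-47D test through treated groups, as *SGK3* did, and its 8-h values are only a description. The difference between the lines at 8 h was 1.20 (SE 0.43, adjusted p = 0.0891). At these counts a doubling of *SGK1* in T-47D cells was not detectable.

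*SGK2*, an SGK kinase found mainly in liver, kidney and pancreas, held 4 to 18 counts in Ishikawa libraries and 3 to 13 in T-47D libraries. Its Ishikawa replicates at 8 h held 18 and 4 counts, which span the values of every other time point. The Ishikawa log2 fold changes were 0.00, -0.37 and -0.19 (SE 0.66, 0.70 and 0.65, adjusted p = 0.999, 0.774 and 0.869). In T-47D cells it did not pass the filter, and without a filter the values were 0.22, 0.49 and -0.78 (SE 0.92, 0.87 and 1.00). No change was detectable at this depth.

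Taken by line, 0 of 4 tested genes were called in Ishikawa cells at any time point against 0 h by edgeR, and none had an unadjusted p under 0.05 or was called by DESeq2 where it gave an adjusted p. The shares of all Ishikawa genes that rose and fell were 2.61% and 1.74% for 2 h, 7.66% and 6.60% for 4 h, and 12.0% and 10.1% for 8 h, or 13.5% and 12.2% with the late libraries as 1 group. Between 2 h and 8 h, where 2.24% of Ishikawa genes were called, 0 of the 4 genes were, and *TSC22D3* alone had an unadjusted p under 0.05 (edgeR, log2 fold change -0.21). In T-47D cells 0 of 4 tested genes rose at 2 h, where 4.90% of all genes did, although *SGK3* had an unadjusted p of 0.0163.

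**Figure D2:**
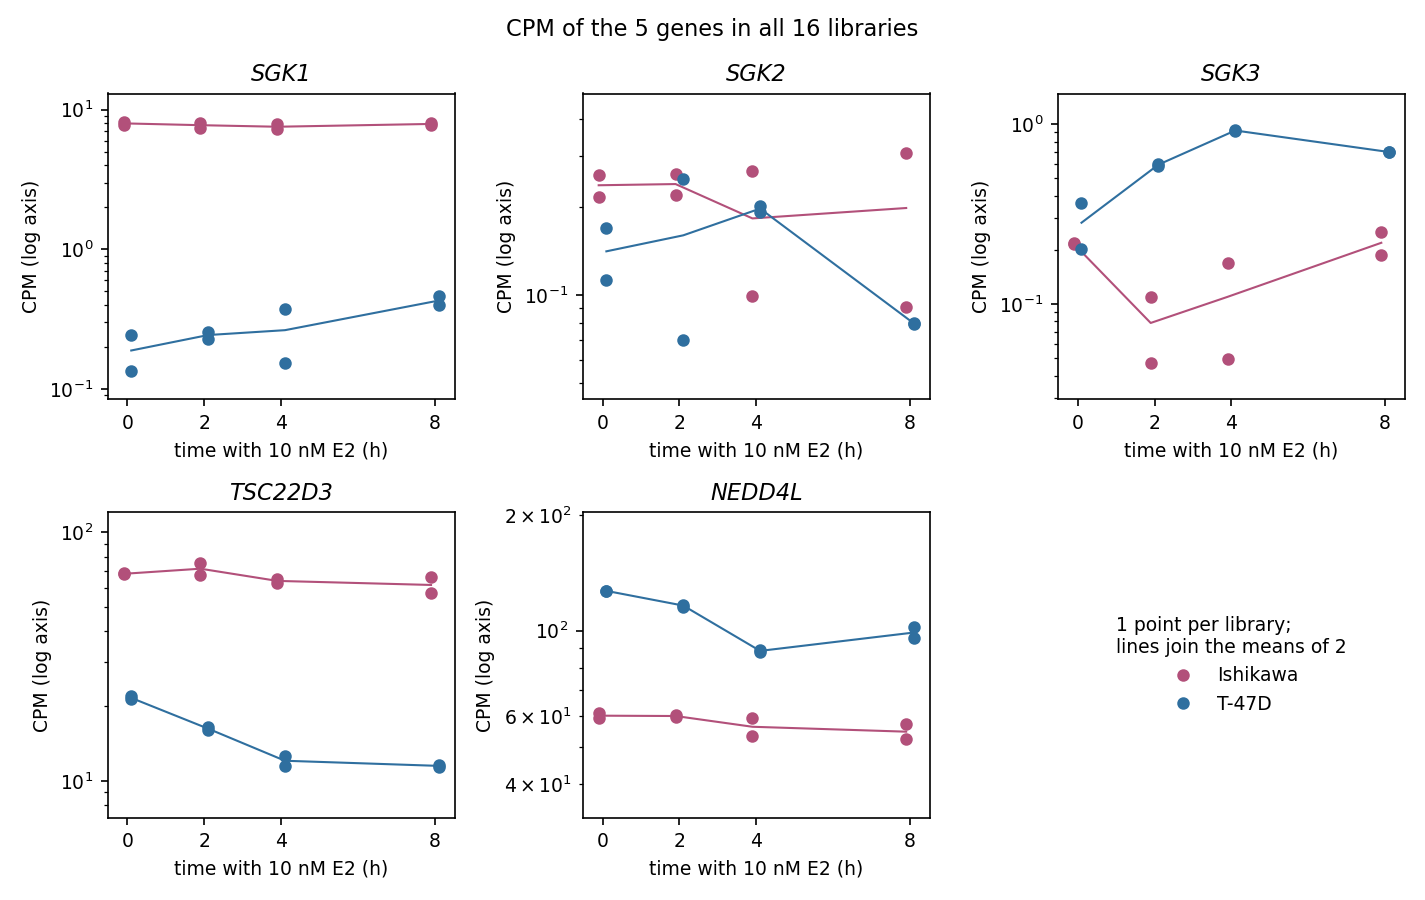
CPM of each gene (log axis) against hours with 10 nM E2, with 1 point per library and lines through the means of 2 libraries, in Ishikawa and T-47D cells. *TSC22D3* declines from 21.9 and 21.3 to 11.6 and 11.4 CPM in T-47D cells, *SGK3* rises there, and *SGK1* stays between 7.24 and 8.16 CPM in Ishikawa cells.

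**Figure D3:**
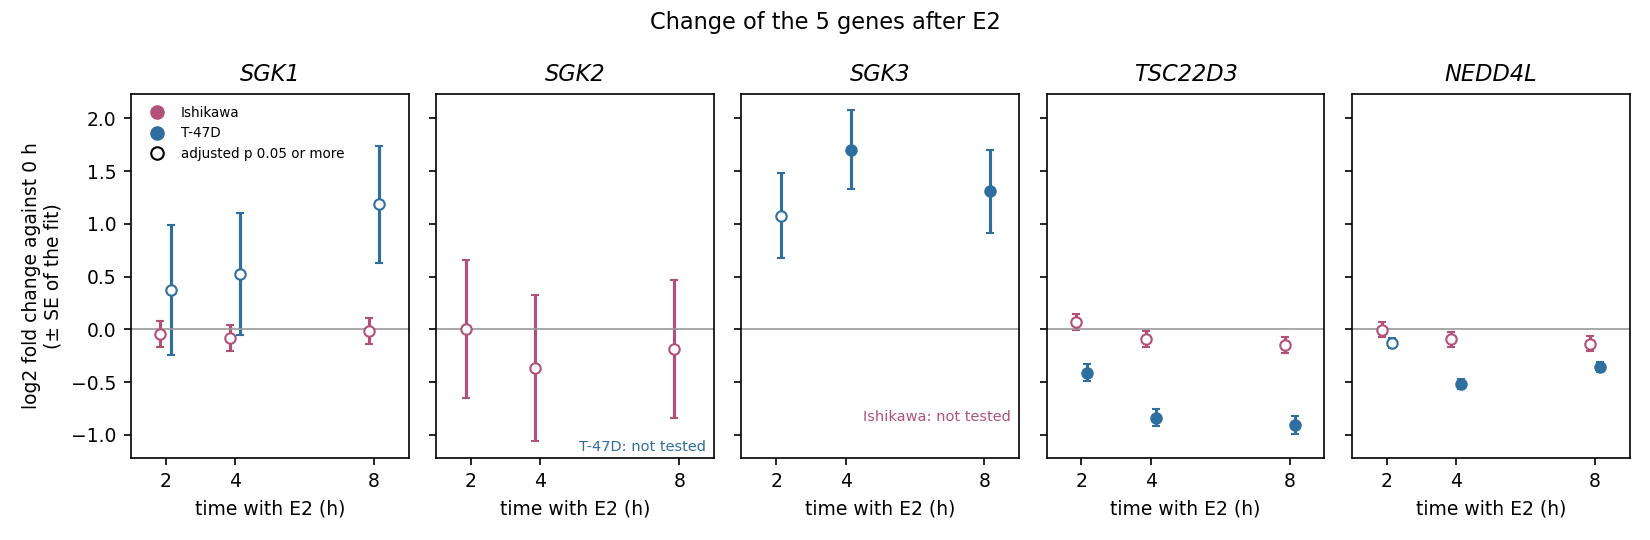
Log2 fold change against 0 h of each gene at 2, 4 and 8 h with the SE of the edgeR fit as bars. Filled points have an adjusted p under 0.05, all of them in T-47D cells (*SGK3* at 4 and 8 h, *TSC22D3* at 2, 4 and 8 h, *NEDD4L* at 4 and 8 h). *SGK3* entered the T-47D test through the treated groups.

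The genes whose log2 CPM followed each gene most closely, after the mean of each line was removed, were found among 9914 genes or more with at least 5 CPM. For *TSC22D3* they were *FNBP1*, *RXRA* and *NANOS1* (r = 0.944 for each, over 16 libraries). Within T-47D cells these gave 0.954, 0.964 and 0.981, and within Ishikawa cells 0.871, 0.743 and 0.478. For *NEDD4L* they were *ZNF704* (0.916), *LGALS8* (0.889) and *PACSIN2* (0.880), with 0.972, 0.938 and 0.938 within T-47D cells and 0.560, 0.633 and 0.407 within Ishikawa cells. For *SGK3*, over the 8 T-47D libraries, they were *RPAIN* (0.980), *LUC7L3* (0.977) and *ZKSCAN2* (0.975). For *SGK1* they were *TSPAN3* (0.860), *CCNB1IP1* (0.793) and *RBP7* (0.771), with 0.915, 0.820 and 0.799 within T-47D cells and 0.149, -0.286 and 0.004 within Ishikawa cells. Each of these 9 genes thus had a higher r in T-47D than in Ishikawa cells. The choice of genes over both lines favors this, because *TSC22D3*, *NEDD4L* and *SGK1* varied more in T-47D cells. It is therefore not a result about the lines. For *SGK2*, over the 8 Ishikawa libraries, they were *SULT2B1* (0.972), *DAZAP2* (0.964) and *PARD3B* (0.958). These are descriptions over libraries that share time points, and those of *SGK1*, *SGK2* and *SGK3* rest on low counts.

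A wider set of 81 genes around the SGK kinases gives the setting of these changes. Of 78 tested in Ishikawa cells, 8 rose and 2 fell at 2 h, 12 rose and 4 fell at 4 h, and 16 rose and 6 fell at 8 h. Over all Ishikawa genes 2.61% rose and 1.74% fell at 2 h, 7.66% rose and 6.60% fell at 4 h, and 12.0% rose and 10.1% fell at 8 h. Of 79 tested in T-47D cells, 12 rose and 11 fell at 2 h, 14 rose and 21 fell at 4 h, and 13 rose and 21 fell at 8 h. Over all T-47D genes 4.90% rose and 4.40% fell at 2 h, 11.1% rose and 10.4% fell at 4 h, and 15.4% rose and 14.3% fell at 8 h. Single libraries moved several of these counts. In Ishikawa cells the 8 genes that rose at 2 h became 16 without 0 h replicate 1 and 5 without 0 h replicate 2, the 2 that fell became 1 without either 2-h library, and at 8 h 10 rose and 3 fell without 0 h replicate 2. In T-47D cells the 11 genes that fell at 2 h became 6 without 0 h replicate 2 or 2 h replicate 1 and 7 without 2 h replicate 2, and at 4 h the 14 that rose became 9 without 0 h replicate 2 and the 21 that fell became 13 without 4 h replicate 2. The medians of all genes lay within 0.01 of 0 (log2) in each of these comparisons.

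Corticosteroid receptors and glucocorticoid-induced genes, to which *TSC22D3* and *SGK1* are usually counted, moved in both directions in T-47D cells. Of 18, 5 fell and 4 rose at 2 h (median log2 fold change -0.12), and 9 fell and 4 rose both at 4 h (median -0.25) and at 8 h (median -0.16), beside 14.3% of all genes that fell and 15.4% that rose at 8 h. Among all T-47D genes 4.40% fell and 4.90% rose at 2 h, and 10.4% fell and 11.1% rose at 4 h. In Ishikawa cells 4 of 17 rose and 0 fell at 2 h (median -0.05), beside 2.61% and 1.74% of all genes. At 4 h 4 rose and 1 fell (median 0.007), beside 7.66% and 6.60%. At 8 h 5 rose and 2 fell (median 0.08), beside 12.0% and 10.1% of all genes, or 5 and 3 with the late libraries as 1 group. *CEBPD*, a transcription factor of acute responses, moved in opposite directions, by 1.11 in Ishikawa (SE 0.10, adjusted p = 3.20e-06) and -0.66 in T-47D cells (SE 0.10, adjusted p = 3.45e-05) at 8 h, and the difference was tested (-1.77, SE 0.14, adjusted p = 4.52e-08). *KLF9*, a zinc-finger repressor, rose by 1.21 at 2 h in Ishikawa cells (SE 0.16, adjusted p = 0.000180) and fell by 0.66 at 8 h in T-47D cells (SE 0.11, adjusted p = 0.000167). *TIPARP*, an ADP-ribosyltransferase, rose by 0.99 at 2 h in Ishikawa cells. In T-47D cells *ANGPTL4*, an inhibitor of lipoprotein lipase, fell by 0.94 at 8 h, while *TFCP2L1*, an epithelial transcription factor, rose by 1.03 at 8 h and *BIRC3*, an inhibitor of apoptosis, by 0.80 at 4 h.

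The receptors themselves and some classical targets are added here after their values were seen. *NR3C1*, the glucocorticoid receptor, had 48.7 and 45.6 CPM at 0 h in T-47D cells and 32.8 and 35.9 CPM at 8 h. It fell there by 0.42, 0.31 and 0.46 at 2, 4 and 8 h (log2, adjusted p = 0.000550, 0.00393 and 7.87e-05), while Ishikawa cells gave 0.18 at 8 h (adjusted p = 0.101). The difference between the lines at 8 h was -0.64 (SE 0.11, adjusted p = 0.000692). *NR3C2*, the mineralocorticoid receptor, fell in both lines, by 0.68 in Ishikawa (SE 0.10, adjusted p = 0.000274) and 0.49 in T-47D cells (SE 0.13, adjusted p = 0.00628) at 8 h. *PER1*, a clock gene, and *DUSP1*, a MAP kinase phosphatase, fell by 0.46 and 0.53 at 8 h in T-47D cells (adjusted p = 0.000296 and 0.000204). *ZBTB16*, a zinc-finger factor strongly induced by glucocorticoids and progestins, went the other way, from 0 and 10 counts in the 0-h libraries of T-47D cells to 26 and 24 in those of 2 h, 64 and 51 in those of 4 h, and 54 and 47 in those of 8 h, and had no count in any Ishikawa library. With no count in 1 of its T-47D 0-h libraries, *ZBTB16* entered the test there through the treated groups, as *SGK3* did. Its part in the counts of this list bears the same limit. *FKBP5*, a chaperone of steroid receptors, rose by 0.16 in T-47D cells (SE 0.04, adjusted p = 0.00992) and by 0.24 in Ishikawa cells (SE 0.08, adjusted p = 0.0374) at 8 h.

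**Figure D4:**
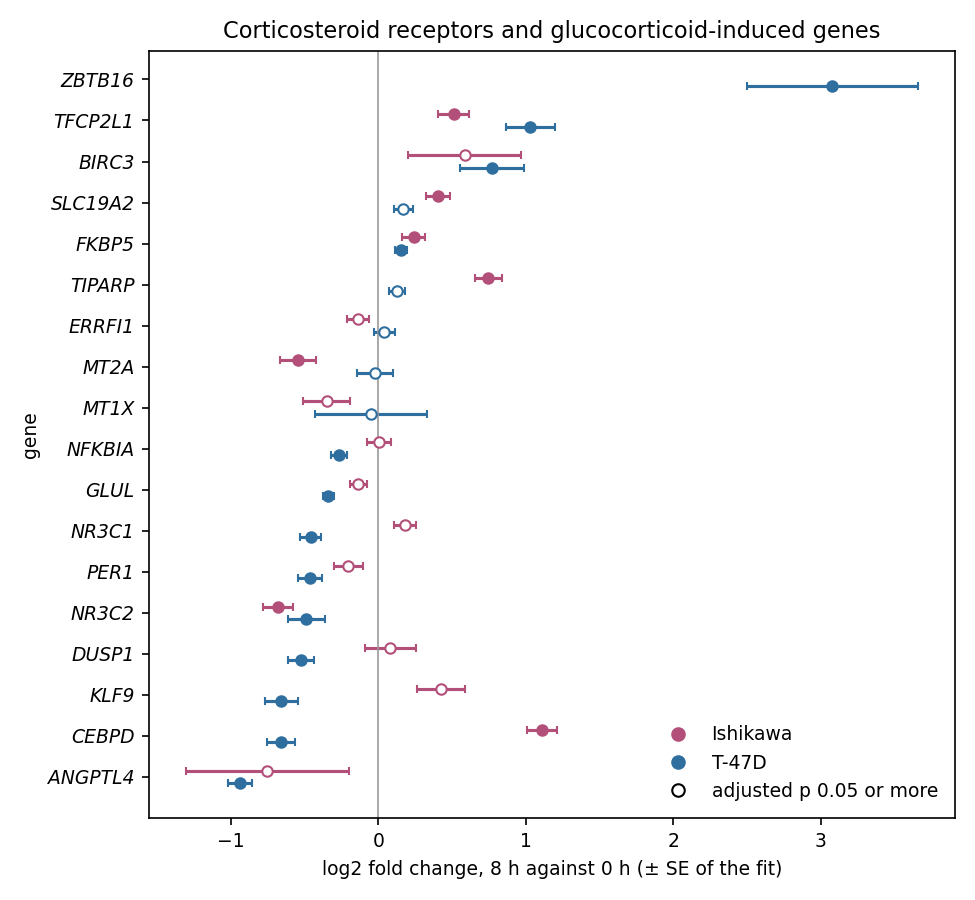
Log2 fold change at 8 h against 0 h, with the SE of the edgeR fit, of the 18 genes of the corticosteroid list, ordered by the T-47D value. Filled points have an adjusted p under 0.05, and in T-47D cells 9 filled points lie below 0 and 4 above, against 2 and 5 in Ishikawa cells.

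Of the other 3 TSC22 family genes, 2 fell at 8 h in T-47D cells, where 14.3% of all genes did, *TSC22D1* by 0.47 (log2, SE 0.05, adjusted p = 5.19e-07) and *TSC22D4* by 0.36 (SE 0.07, adjusted p = 0.000356). *TSC22D2* did not pass, with a log2 fold change of 0.13 and a mean of 33.3 CPM at 0 h and 36.3 CPM at 8 h. In Ishikawa cells *TSC22D1* and *TSC22D4* gave -0.12 and -0.10 (adjusted p = 0.153 and 0.443). The difference between the lines at 8 h passed for *TSC22D1* (-0.36, SE 0.07, adjusted p = 0.00292) and not for *TSC22D4* (-0.27, SE 0.12, adjusted p = 0.168).

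Of 9 relatives and adaptors of *NEDD4L* tested in T-47D cells at 8 h, 2 rose and 1 fell, and of 10 in Ishikawa cells 3 rose (2 with the late libraries as 1 group). Over all genes 15.4% rose and 14.3% fell in T-47D cells, and 12.0% rose in Ishikawa cells (13.5% with the late libraries as 1 group). *WWP1*, a ligase of the same family, rose by 0.44 at 4 h in T-47D (adjusted p = 7.23e-05) and by 0.36 at 8 h in Ishikawa cells (adjusted p = 0.00376). *NDFIP2*, a membrane adaptor that activates these ligases, rose by 0.26 and 0.36 at the same times (adjusted p = 0.0104 and 0.00616), and its partner *NDFIP1* by 0.24 at 8 h in Ishikawa cells (adjusted p = 0.0156), a call that was lost with the late libraries as 1 group (adjusted p = 0.0825). *WWP2* fell by 0.18 at 8 h in T-47D cells (adjusted p = 0.00614), opposite to *WWP1*.

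Of the genes of sodium transport, the ENaC subunits targeted by NEDD4L differed in presence. *SCNN1A* had 94.2 and 102.9 CPM in Ishikawa and 58.6 and 64.0 CPM in T-47D cells at 0 h and fell by 0.31 at 8 h in T-47D cells (adjusted p = 0.000679). *SCNN1B* had 365 and 334 counts at 0 h in T-47D cells and 0 to 2 counts in every Ishikawa library. *SCNN1G* rose transiently in T-47D cells, with 18 and 20 counts in the 0-h libraries, 83 and 50 in those of 2 h, 42 and 43 in those of 4 h, and 22 and 21 in those of 8 h (log2 fold change 1.71 at 2 h, SE 0.34, adjusted p = 0.00233). The 3 subunits are named after their values were seen. *SLC9A3R1*, the scaffold NHERF1 that binds sodium-proton exchangers, rose in both lines, by 1.08 at 4 h in Ishikawa (SE 0.09, adjusted p = 8.78e-07) and 1.01 at 8 h in T-47D cells (SE 0.04, adjusted p = 3.19e-12). *HSD11B2*, which inactivates cortisol, rose in Ishikawa cells from 2.04 and 2.45 CPM at 0 h to 6.92 and 8.72 CPM at 4 h (1.80, SE 0.18, adjusted p = 6.17e-06), and gave 0.13 in T-47D cells (adjusted p = 0.688). *USP2*, a deubiquitinase that opposes NEDD4L on ENaC, fell by 0.81 at 4 h in T-47D cells (SE 0.08, adjusted p = 5.62e-07) and rose by 0.41 in Ishikawa cells (SE 0.13, adjusted p = 0.0416), and the difference was -1.21 (SE 0.14, adjusted p = 1.04e-05). The Ishikawa call was lost when 1 of 5 libraries was left out (0 h replicate 1 or any library of 2 h or 4 h). *ATP1B1*, a sodium pump subunit, rose by 0.34 at 4 h in T-47D cells (adjusted p = 0.000174).

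Among substrates of SGK kinases, 2 of 13 fell and 1 rose in T-47D cells at 8 h, and 1 of 13 fell in Ishikawa cells. These counts are near the shares of all genes, of which 14.3% fell and 15.4% rose in T-47D cells and 10.1% fell in Ishikawa cells. *NDRG1*, whose phosphorylation is a common readout of SGK activity, had 110.9 and 109.6 CPM in the 0-h libraries of T-47D cells, 99.3 and 104.6 in those of 2 h, 78.7 and 77.7 in those of 4 h, and 43.6 and 41.7 in those of 8 h. It fell by 1.37 at 8 h (log2, SE 0.05, adjusted p = 1.06e-12), with no overlap between 0 h and any later group. In Ishikawa cells the 8-h value was -0.49 (SE 0.19, adjusted p = 0.0790), and the difference between the lines was -0.90 (SE 0.17, adjusted p = 0.00115). *FOXO4*, a transcription factor excluded from the nucleus when phosphorylated, fell by 0.45 at 8 h in T-47D cells (adjusted p = 0.00362), and *WNK1*, a kinase of salt transport, rose by 0.40 (adjusted p = 1.14e-06). *TSC2*, an inhibitor of mTORC1 signaling, fell by 0.32 at 8 h in Ishikawa cells (adjusted p = 0.00462).

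Upstream of the SGK kinases, 3 of 16 genes rose and 2 fell in T-47D cells at 8 h, and 3 of 17 rose and 1 fell in Ishikawa cells (4 and 1 with the late libraries as 1 group). Over all genes 15.4% rose and 14.3% fell in T-47D cells and 12.0% and 10.1% in Ishikawa cells, so these counts too are near the background. *DEPTOR*, an inhibitor bound to mTOR in both mTOR complexes, rose in both lines. It had 44.4 and 40.6 CPM at 0 h and 93.0 and 105.3 CPM at 8 h in Ishikawa cells (1.22, SE 0.09, adjusted p = 3.59e-07), and 22.4 and 20.5 CPM at 0 h and 35.7 and 33.7 CPM at 4 h in T-47D cells (0.69, SE 0.08, adjusted p = 2.64e-06). *PIK3R3*, a regulatory subunit of PI3K, fell in both, by 0.44 at 2 h in Ishikawa (SE 0.06, adjusted p = 0.000383) and 0.50 at 8 h in T-47D cells (SE 0.04, adjusted p = 9.75e-08). *PRR5L*, a subunit of mTORC2, rose by 0.57 at 4 h in Ishikawa cells (adjusted p = 0.000449), and *PHLPP1*, a phosphatase that acts on AKT, fell by 0.34 at 2 h in T-47D cells (adjusted p = 0.00844).

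Of the AKT kinases, the nearest outside the SGK group, *AKT1* fell by 0.16 at 8 h in T-47D cells (adjusted p = 0.00385), the 1 call among 3 AKT genes there. Among all T-47D genes 14.3% fell at 8 h and 15.4% rose. Of 7 genes for 14-3-3 proteins, which bind phosphopeptides, 3 rose and 1 fell in Ishikawa cells at 8 h, where 12.0% of all genes rose and 10.1% fell. In T-47D cells 1 of the 7 rose at 8 h, beside 15.4% of all genes. *SFN* fell by 0.76 at 8 h in Ishikawa (adjusted p = 5.41e-05) and by 0.18 at 4 h in T-47D cells (adjusted p = 0.0319). *YWHAG* rose by 0.28 at 8 h in Ishikawa cells (adjusted p = 0.00163) and by 0.32 at 4 h in T-47D cells (adjusted p = 8.61e-06), and *YWHAB* by 0.22 at 8 h in Ishikawa cells (adjusted p = 0.0125).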

How the data were processed

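Bulk RNA-seq was measured in 16 libraries, with groups taken from the labels. Libraries were directional and poly(A)-selected. Per the submitters' notes and the study's methods, the authors used HISAT2 (build hg19), SAMtools, and featureCounts over UCSC Known Genes, and the deposited values are raw counts per gene. The authors' own tests used DESeq2. Versions, strand and read-pair settings are not given in the sources used here. The study's single-cell libraries were not analysed here.

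The tests ran in edgeR 4.0.16 under R 4.3.3, after filterByExpr (15787 genes kept in Ishikawa cells, 15594 in T-47D cells, 17090 over both) and TMM scaling, as quasi-likelihood F-tests with the hour of E2 as a factor in each line. An adjusted p (Benjamini-Hochberg over all genes tested) under 0.05 was called. Differences between the lines were tested as the interaction over all 16 libraries. CPM used TMM-scaled totals, and the SE is the log2 fold change over the square root of F. No replicate pair held identical counts. Depth limits *SGK2*, *SGK3* and, in T-47D cells, *SGK1*.

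The 5 genes and the lists around them were chosen with earlier results of these data known. List genes are named by rule, as up to 3 called genes per list and line with the largest change and a mean of at least 1 CPM, and likeness was Pearson's r of line-centered log2 CPM (prior count 2). Positions and sequences come from GRCh37 with GENCODE. In simulated data drawn from the real means, with 200 genes changed by 1 (log2), the 2-h comparison recovered 77.0% of them in Ishikawa cells (15607 genes tested) and 79.0% in T-47D cells (15408), and 6.10% and 11.2% of calls were false. For the difference between the lines, 73.0% were recovered and 7.01% of calls were false (16645 genes). Alternatives were DESeq2 1.42.0, RLE scaling, a replicate block, no filter or a floor of 10 counts per library, counts divided by 2, only the groups compared, leaving out each library in turn, and late libraries as 1 group. Those for the lists were added after seeing the data.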

Additional observations from a re-analysis of the deposited data

Results flagged for a closer look

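The change after E2 differed between T-47D and Ishikawa cells by the interaction test in edgeR for 3 of the 5 genes at some time point. All values here are T-47D minus Ishikawa on the log2 scale. *TSC22D3* gave -0.46, -0.73 and -0.77 at 2, 4 and 8 h, *NEDD4L* -0.41 at 4 h, and *SGK3* 2.67 at 4 h. Of all genes 2.67%, 6.03% and 10.0% differed at 2, 4 and 8 h. Taken by line, *SGK3* did not pass the filter in Ishikawa cells and passed it in T-47D cells through the treated groups. The *SGK3* value rests on few Ishikawa counts and lost its call in most fits that left out 1 library. That of *TSC22D3* at 2 h lost its call in some of them.

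Of the list genes named, the same test passed at 2, 4 and 8 h for *CEBPD* (-1.61, -1.79 and -1.77), *KLF9* (-1.34, -0.68 and -1.09), *USP2* (-1.01, -1.21 and -0.99), *TIPARP* (-0.56, -0.51 and -0.62) and *ATP1B1* (0.36, 0.51 and 0.39). It passed at 4 and 8 h for *HSD11B2* (-1.66 and -1.47), *DEPTOR* (-0.48 and -0.71), *DUSP1* (-0.76 and -0.61), *SFN* (0.51 and 0.70) and *WNK1* (0.34 and 0.33). It passed at 8 h alone for *NDRG1* (-0.90), *NR3C1* (-0.64) and *TSC22D1* (-0.36).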

How the results depend on the processing

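Over 902 recomputed values of the 5 genes, 852 kept their direction and their side of the threshold. The replicate block changed no call of the 5 genes (*TSC22D3* at 8 h in T-47D cells -0.91 with the block, adjusted p = 1.18e-06). Same-numbered replicates did not deviate together over all genes kept (correlations of -0.115 to 0.053 in Ishikawa and -0.055 to 0.060 in T-47D cells). This cannot settle whether the numbers pair the libraries, since a batch that moved only some genes could be missed. RLE scaling changed no call either. The calls of *TSC22D3* and *NEDD4L* in T-47D cells held in all 8 fits without 1 library. *SGK2* at 2 h in Ishikawa cells turned to -0.007 with no filter and -0.002 with only the groups compared. The difference between the lines in *NEDD4L* at 8 h passed with DESeq2 (-0.26) and with the late libraries as 1 group (-0.32). That in *SGK3* at 4 h missed with counts divided by 2 (2.52), only the groups compared (2.65) and the late libraries as 1 group (1.89). With the late libraries as 1 group, that in *SGK2* at 8 h turned to 0.29, and *SGK1* at 8 h against 2 h in Ishikawa cells to 0.00. Where only 1 library was left out, direction or call changed within these ranges. In Ishikawa cells they were at 2 h *SGK1* -0.105 to 0.019, *SGK2* -0.11 to 0.13, *TSC22D3* -0.015 to 0.15 and *NEDD4L* -0.023 to 0.021; at 4 h *SGK2* -1.24 to 0.16; at 8 h *SGK1* -0.042 to 0.022 and *SGK2* -1.35 to 0.35; and at 8 h against 2 h *SGK1* -0.03 to 0.10 and *SGK2* -1.35 to 0.36. In T-47D cells they were *SGK1* at 4 h -0.27 to 0.99 and *SGK3* at 8 h 0.95 to 1.78. For the difference between the lines they were *SGK2* at 2 h -0.96 to 0.83 and at 8 h -1.19 to 0.53, *TSC22D3* at 2 h -0.54 to -0.42, *SGK1* at 4 h -0.20 to 1.09, *SGK3* at 4 h 2.05 to 3.76, and *NEDD4L* at 8 h -0.31 to -0.18. *SGK3* at 0 h between the lines ranged from -0.019 to 0.81. The filter of at least 10 counts in every library dropped the low genes and gave 28 values, and an adjusted p of NA in DESeq2 gave none.

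For the list genes, the alternatives that kept all libraries moved only the counts of genes that fell in Ishikawa cells by over 1.5 times. At 2 h these were 2, against 4 with DESeq2, 4 with no filter and 1 with the replicate block, and at 4 h 4, against 7 with no filter and 8 with the late libraries as 1 group. Without 1 library, the genes that rose in Ishikawa cells were 5 to 16 at 2 h and 10 to 21 at 8 h (fewest without 0 h replicate 2 and most without 0 h replicate 1), and those that fell were 1 to 2 and 3 to 8. In T-47D cells 6 to 12 fell at 2 h, and at 4 h 9 to 14 rose and 13 to 21 fell. Of 553 values of the named list genes, 26 lost their call and none turned (*USP2*, *NDFIP1*, *NDFIP2*, *TSC2* and *YWHAB* in Ishikawa cells, *SFN*, *PHLPP1*, *BIRC3*, *NDFIP2* and *WWP2* in T-47D cells), and *USP2* at 4 h in Ishikawa cells lost it with the replicate block (0.41, adjusted p = 0.0547). The causes of these changes were not tested. Counts of 2 to 59 limit *SGK2* and *SGK3*, and with 2 libraries per group small changes of the others are not detectable.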
